A study of Arabidopsis thaliana with 24 samples.

Results

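The seed storage protein genes of Arabidopsis thaliana followed here were the 5 genes of 2S albumins and the 3 genes of 12S globulins, or cruciferins. The albumin genes are SESA1 (AT4G27140), SESA2 (AT4G27150), SESA3 (AT4G27160), SESA4 (AT4G27170) and SESA5 (AT5G54740), and the globulin genes are CRA1 (AT5G44120), CRB (AT1G03880) and CRC (AT4G28520). They were taken by gene identifier, and all 8 were found among the 32833 genes of each expression table. RNA came from whole seedlings of Columbia 0 background in 8 groups of 3 libraries, which makes 24 libraries. The groups were FyPP3DN seedlings with and without abscisic acid (ABA), nrp1 nrp2 double mutants with and without ABA, seedlings labelled nrp1 nrp2 FyPP3DN with and without ABA, and wild type (WT) with and without ABA. In FyPP3DN, DN stands for a dominant-negative version of FYPP3, and FYPP3 is a catalytic subunit of protein phosphatase PP6. The sources used here do not give the promoter behind it. Treatment was 5 µM ABA for 24 h. The sample labels put it on seedlings of 5 days, whereas the design text has 6 days of growing before 1 treated day, and nothing in the files decides between them. The labels do not say whether the 3 libraries of a group came from separate cultures, so p-values measure the spread between libraries, which may be technical.

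2S albumins and 12S globulins are the main storage proteins of the Arabidopsis seed. Their genes are transcribed in the maturing embryo under the seed regulators ABI3, FUS3, LEC1 and LEC2, together with bZIP factors such as ABI5, BZIP25 and BZIP53, while ABA is high. The precursors travel to the protein storage vacuole, where vacuolar processing enzymes cleave them, and the proteins are broken down to feed the seedling after germination. In the growing seedling the genes are normally shut, with VAL repressors, the chromatin remodeller PKL and Polycomb complexes among the factors that keep them so.

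All expression values are FPKM as deposited, a unit that divides fragments by transcript length and by library size. Depth recovered from the FPKM steps of short genes ran from 16.6 to 29.1 M (mega) fragments per library (median 19.3 M). Each group held 1 library with 9.61 to 18.8% of its FPKM on plastid-encoded genes and 2 with 0.0252 to 0.0877%, called plastid-rich and plastid-poor below. The plastid-rich library was library 1 of each group, except in untreated FyPP3DN, where it was library 2. FYPP3 lay at 22.5 to 29.3 FPKM in FyPP3DN with ABA, at 34.5 to 85.2 FPKM in FyPP3DN without ABA and at 12.7 to 18.3 FPKM in the 6 WT libraries. In the nrp1 nrp2 FyPP3DN libraries, as labelled, FYPP3 was at 12.8 to 18.4 FPKM, close to the WT range, so they are called the labelled combination below. NRP1 (AT3G27090) lay at 18.7 to 21.1 FPKM in untreated nrp1 nrp2 and at 65.8 to 69.2 FPKM in untreated WT. NRP2 (AT5G42050) lay at 44.0 to 69.7 FPKM in untreated nrp1 nrp2 and at 29.6 to 31.7 FPKM in untreated WT, and where its lesion lies relative to the counted reads is not given here. The photosynthetic gene RBCS1A was at 11619 FPKM or more in every library, as a green seedling has it, and of 3 endosperm and seed coat markers, EPR1 and EXPA2 stayed at or below 0.62 and 0.41 FPKM while MAN7 ran from 3.04 to 6.06 FPKM. MAN7 was highest in library 3 of untreated FyPP3DN, and its averaged ABA response was 0.07 ± 0.07 on the log2 scale (limma adjusted p = 0.540).

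The 250 bases before the annotated start of each gene are shown for 3 members that behaved differently, so that the letters can be set beside the values. CRA1 and CRC are the members with signal, and SESA3 is the albumin gene with the most CATGCA copies. Sequences were read from the TAIR10.1 assembly (RefSeq), 5′ to 3′ on the gene's strand, with each CATGCA (the core of the RY element bound by B3 factors such as ABI3 and FUS3) and each ACGTG (the core of the ABA response element bound by bZIP factors), on either strand, in capitals.
CRA1, chr5:17758337-17758586, minus strand: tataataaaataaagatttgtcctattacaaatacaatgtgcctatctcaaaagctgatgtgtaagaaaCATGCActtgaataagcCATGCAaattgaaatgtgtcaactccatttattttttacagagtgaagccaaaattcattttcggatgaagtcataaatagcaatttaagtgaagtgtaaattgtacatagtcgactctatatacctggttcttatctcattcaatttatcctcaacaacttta
CRC, chr4:14087306-14087555, plus strand: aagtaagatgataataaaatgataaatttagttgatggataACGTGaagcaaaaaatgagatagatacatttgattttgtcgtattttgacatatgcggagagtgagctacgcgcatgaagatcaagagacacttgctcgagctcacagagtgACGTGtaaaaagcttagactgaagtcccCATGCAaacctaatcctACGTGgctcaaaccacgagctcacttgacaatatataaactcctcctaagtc
SESA3, chr4:13611546-13611795, plus strand: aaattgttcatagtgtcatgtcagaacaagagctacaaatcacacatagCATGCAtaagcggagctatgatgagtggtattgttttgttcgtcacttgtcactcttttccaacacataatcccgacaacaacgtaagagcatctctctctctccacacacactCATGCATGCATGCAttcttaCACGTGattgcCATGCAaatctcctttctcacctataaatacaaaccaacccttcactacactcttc

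Overlapping copies were counted separately. Among 27431 promoter windows of the same length, CATGCA occurred in 8.44%, at least 2 copies of it in 1.66%, ACGTG in 22.9% and its longer form CACGTG, which contains ACGTG on both strands, in 6.49%. The 5 albumin promoters held 2, 3, 7, 6 and 4 copies of CATGCA for SESA1 to SESA5, and each had 1 CACGTG. The CRA1 window held 2 CATGCA and no ACGTG, and the CRC window 1 CATGCA and 3 ACGTG. These are matches of letters, and binding was not measured.

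The 4 albumin genes SESA1 to SESA4 lie side by side on the plus strand of chromosome 4, from position 13607329 to 13614283 of TAIR10.1, and SESA5 lies on chromosome 5 (22238358 to 22239187, minus strand). Their transcripts are much alike, with 82.6 to 90.6% identical bases over the aligned parts of SESA1 to SESA4, so fragments can have been split between them by the counting. The longest exact stretch shared by SESA2 and SESA3 is 49 bases and lies in the coding part, and it is printed because a fragment within it cannot be assigned.
SESA2 and SESA3: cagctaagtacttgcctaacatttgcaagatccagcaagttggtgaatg
The 12S genes share exact stretches of at most 26 bases. CRA1 (chromosome 5, 17756238 to 17758336, minus strand), CRB (chromosome 1) and CRC (chromosome 4, 14087556 to 14089796, plus strand) stand apart in the genome.

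The albumin genes were close to silent in every group. Over all 24 libraries the 5 genes together had 264 fragments, against 4838 fragments for the 3 globulin genes. A count of 3 fragments corresponds to 0.124 to 0.262 FPKM for an albumin gene, depending on gene and library, and this floor covers counting error only. SESA1 was at 0 in 10 of 24 libraries and reached 0.57 FPKM, SESA3 was at 0 in 10 and reached 0.42 FPKM, and SESA4 was at 0 in 11 and reached 0.38 FPKM. No group stood apart for these 3 genes beyond a few fragments.

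SESA5 and SESA2 were the albumins with a library above 1 FPKM. SESA5 was at 0.7, 0 and 2.03 FPKM in FyPP3DN with ABA, at 0.22, 0.14 and 0.36 FPKM in FyPP3DN without ABA, and at 0 in all 3 untreated WT libraries. The value of 2.03 FPKM rested on 47.1 of the 86 fragments that SESA5 had in all libraries. SESA2 was at 1.05, 0.07 and 0.84 FPKM in untreated nrp1 nrp2, and at 0 in all 3 untreated WT libraries. In nrp1 nrp2 with ABA it was at 0.34, 0 and 0.06 FPKM. The 2 higher nrp1 nrp2 libraries for SESA2 (1 and 3) were not the library in which CRA1 was high (2), and SESA5 was highest where CRA1 was highest.

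CRB, the gene of cruciferin B, was at 0 in 13 of 24 libraries. Its highest value was 0.32 FPKM, in library 3 of untreated nrp1 nrp2, and all libraries together held 32 fragments. It was at 0, 0 and 0.04 FPKM in FyPP3DN with ABA, the group in which its relatives CRA1 and CRC were highest. The map of fragments by gene and library shows the signal of the family in the rows of CRA1 and CRC.

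**Figure D1:**
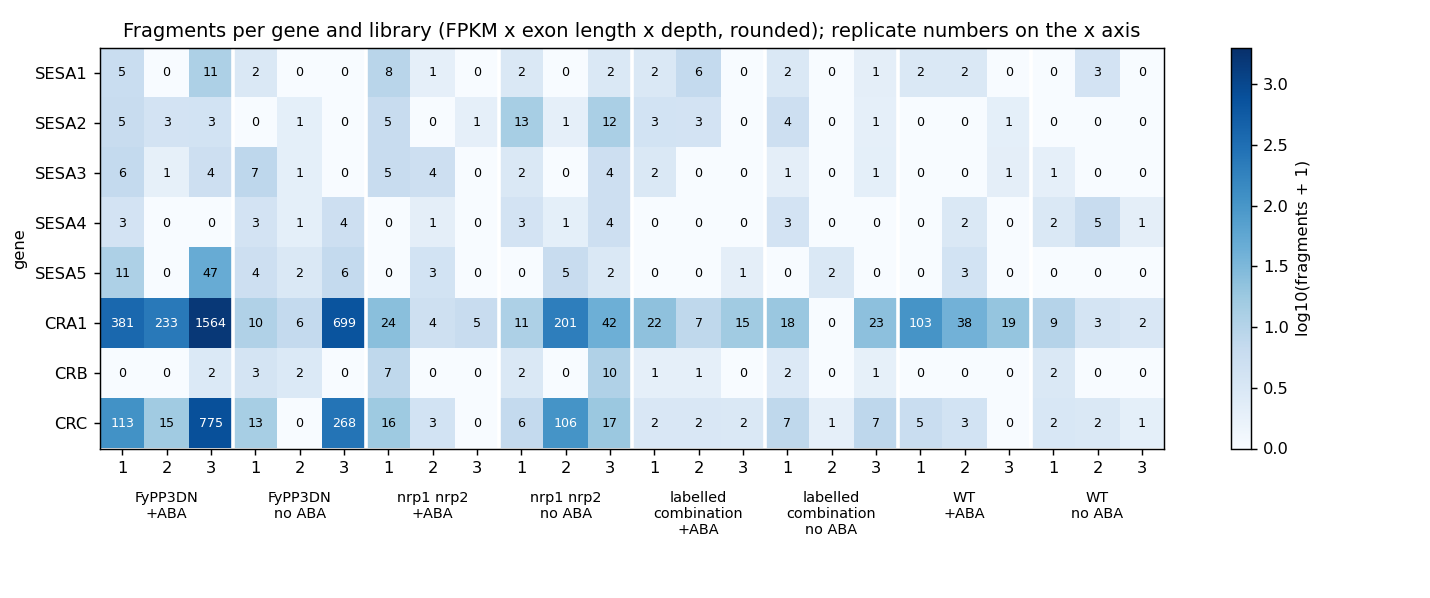
Each cell gives the fragments of 1 gene (rows, the 5 albumins above the 3 globulins) in 1 library (columns, 3 per group), computed as FPKM times exon length times depth and rounded; the colour is log10(fragments + 1). CRA1 reached 1564 fragments and CRC 775 in library 3 of FyPP3DN with ABA, while the other 6 genes held at most 47 in any library.

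CRA1, which encodes cruciferin A, was at 10.76, 4.29 and 30.02 FPKM in libraries 1, 2 and 3 of FyPP3DN with ABA, and at 0.25, 0.19 and 18.64 FPKM in FyPP3DN without ABA. The ABA-treated FyPP3DN libraries were all above 4 FPKM, yet library 3 of the untreated group lay above 2 of them. In nrp1 nrp2, CRA1 was at 0.64, 0.11 and 0.13 FPKM with ABA and at 0.35, 5.79 and 1.17 FPKM without ABA. Here the untreated group held the higher values, and library 2 stood above its partners. In the labelled combination, CRA1 was at 0.6, 0.19 and 0.44 FPKM with ABA and at 0.35, 0 and 0.66 FPKM without ABA. These groups overlapped. In WT, CRA1 was at 2.07, 1.06 and 0.52 FPKM with ABA and at 0.2, 0.08 and 0.06 FPKM without ABA, and the groups did not overlap. Per library, CRA1 stood above 89.1% of all genes in library 3 of FyPP3DN with ABA, and above 31.8 to 35.8% of them in untreated WT.

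CRC, the gene of cruciferin C, was at 3.31, 0.29 and 15.42 FPKM in FyPP3DN with ABA and at 0.33, 0 and 7.41 FPKM in FyPP3DN without ABA. Library 3 was the highest of both groups, as it was for CRA1. In nrp1 nrp2, CRC was at 0.45, 0.09 and 0 FPKM with ABA and at 0.2, 3.17 and 0.49 FPKM without ABA. In the labelled combination it was at 0.06 FPKM in all 3 with ABA, and at 0.14, 0.03 and 0.21 FPKM without ABA. In WT it was at 0.1, 0.09 and 0 FPKM with ABA and at 0.05, 0.06 and 0.03 FPKM without ABA. CRC reached 1 FPKM in 4 of 24 libraries and CRA1 in 8, all 4 among the 8. In bulk seedlings, fewer cells that transcribe a gene and less RNA per cell cannot be told apart.

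**Figure D2:**
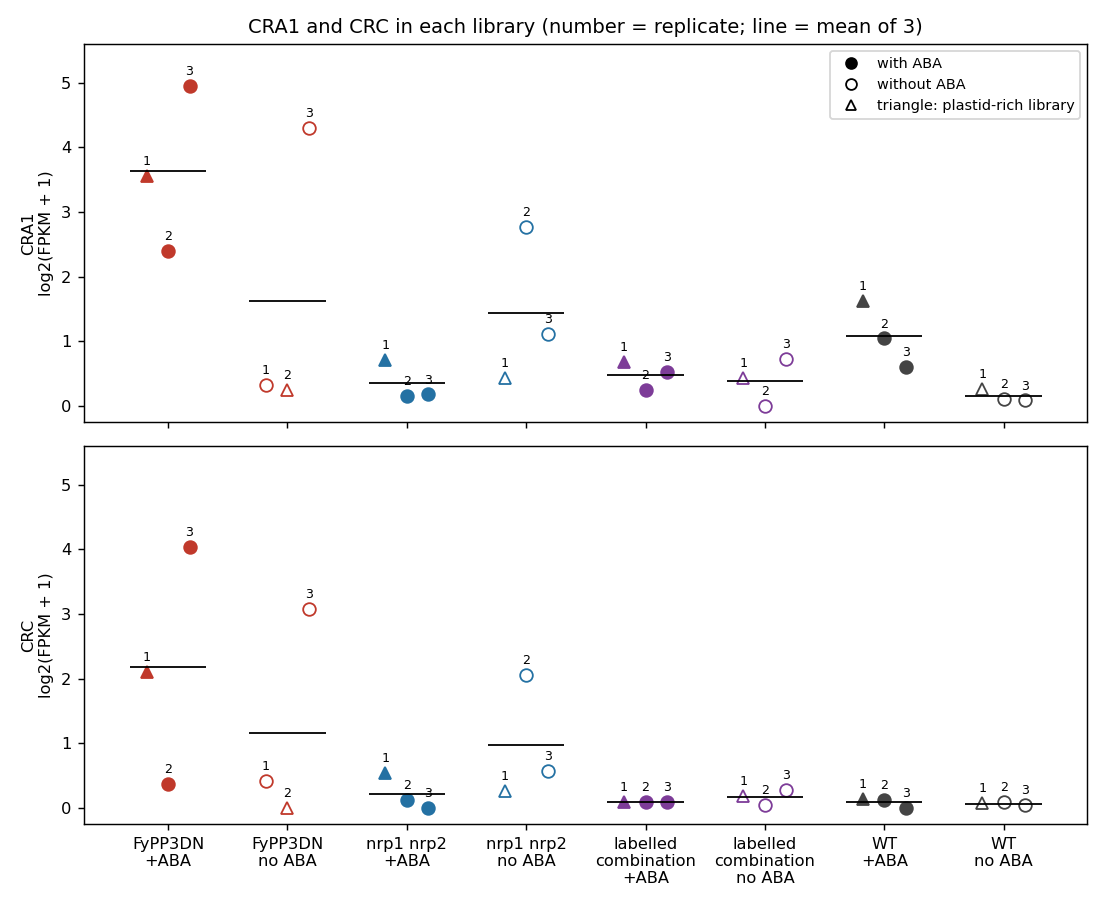
Each point is 1 library, with its replicate number, for CRA1 (upper panel) and CRC (lower panel); the vertical axis is log2(FPKM + 1), filled points are ABA-treated, triangles are plastid-rich libraries and bars are means of 3. FyPP3DN with ABA had the highest mean for both genes, and library 3 of untreated FyPP3DN and library 2 of untreated nrp1 nrp2 lay far above their partners.

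Tests were run with limma on log2(FPKM + 1) in one model of all 24 libraries. Genes had to reach 1 FPKM in at least 3 libraries, which 19500 genes did. Of the 8 storage genes, CRA1 and CRC passed this filter. CRC did so only through libraries 1 and 3 of FyPP3DN with ABA, library 3 of untreated FyPP3DN and library 2 of untreated nrp1 nrp2. The other 6 genes did not pass. They have values only here, and were tested in an alternative with no filter. Over 16 comparisons the pair gave 32 tests, of which 0 passed an adjusted p of 0.05 in limma. An unadjusted p under 0.05 was found in 3 of them, and the lowest adjusted p was 0.156.

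The first question was whether ABA changes storage gene RNA in seedlings. In FyPP3DN, limma gave 0 of 2 genes called, where 5.95% of all genes were called. The CRA1 difference, ABA-treated minus untreated, was 2.02 ± 0.78 (SE) on the log2 scale (95% interval 0.38 to 3.65, limma adjusted p = 0.156), and that of CRC was 1.01 ± 0.70 (adjusted p = 0.494). Without library 3 of untreated FyPP3DN, the CRA1 difference was 3.35 ± 0.58 and passed (limma adjusted p = 0.00158), where 4.54% of all genes were called. The call thus depended on whether that library was counted. It held the highest CRA1 of the untreated group, at 18.64 FPKM, so leaving it out raises the difference. This pass is therefore no support for a response. CRC without it was at 1.97 ± 0.64 (limma adjusted p = 0.0942). With library 2 of untreated nrp1 nrp2 also left out, an alternative chosen after seeing the data, CRA1 was at 3.35 ± 0.48 (limma adjusted p = 0.000319, with 4.12% of all genes called). CRC then no longer reached the filter given above, and the CRA1 pass is no support either. SESA2 lay higher in all 3 ABA-treated FyPP3DN libraries than in the untreated ones, as did 9.14% of all tested genes, among which SESA2 was not. It was at 0.36, 0.14 and 0.15 FPKM with ABA and at 0, 0.08 and 0 FPKM without, which is a few fragments per library. Among the plastid-poor libraries alone, with 2 per group, the CRA1 difference in FyPP3DN was 1.37 ± 1.01 (limma adjusted p = 0.473). The plastid-rich libraries, 1 per group, give no test, and they had 10.76 FPKM with ABA and 0.19 FPKM without.

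In WT, 0 of 2 genes were called, where 7.7% of all genes were. The 3 ABA-treated libraries of CRA1 lay above the 3 untreated ones, as did those of 11.8% of all genes, and the difference was 0.94 ± 0.78 (limma adjusted p = 0.665). Among the plastid-poor libraries it was 0.73 ± 1.01 (adjusted p = 0.850). The CRC difference in WT was 0.02 ± 0.70. In nrp1 nrp2, 0 of 2 were called against 6.02% of all genes, and the differences were -1.09 ± 0.78 for CRA1 (limma adjusted p = 0.625) and -0.75 ± 0.70 for CRC (adjusted p = 0.752). Without library 2 of untreated nrp1 nrp2 they were -0.43 and -0.20. In the labelled combination, 0 of 2 were called against 11.4% of all genes, with 0.10 ± 0.78 for CRA1 and -0.08 ± 0.70 for CRC. Averaged over the 4 genotypes, 0 of 2 were called against 24.3% of all genes, with 0.49 ± 0.39 for CRA1 (limma adjusted p = 0.424) and 0.05 ± 0.35 for CRC (adjusted p = 0.947). Without library 3 of untreated FyPP3DN, the averaged CRA1 difference was 0.82 and passed (limma adjusted p = 0.0284), where 24.2% of all genes were called. Without both untreated libraries, a choice made after seeing the data, it was 0.99 (limma adjusted p = 0.0032, with 22.3% of all genes called). Each pass left out library 3 of untreated FyPP3DN, where CRA1 was high, so neither is support for a response. With no filter on low values, 1 of 8 genes was called in the averaged response, where 19.4% of all genes were. This was SESA4 at -0.16 ± 0.05 (limma adjusted p = 0.0302). SESA4 had 33 fragments over all libraries and at most 5 in any library, so the call rests on a few fragments.

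The intervals were wide, so a p that misses the threshold does not show that a gene stayed level. For CRA1 in WT the 95% interval ran from -0.70 to 2.57 on the log2 scale, and for CRC from -1.44 to 1.49. Whether the ABA response differed between genotypes was tested in the same model, which called 0 of 2 genes in each of the 3 differences, where 0, 0.144 and 0% of all genes were called for nrp1 nrp2, FyPP3DN and the labelled combination. For CRA1, the response in FyPP3DN minus that in WT was 1.08 ± 1.11 (limma adjusted p = 0.838). In nrp1 nrp2 minus WT it was -2.03 ± 1.11 (adjusted p = 1.00), and in the labelled combination minus WT -0.84 ± 1.11 (adjusted p = 1.00). With single libraries left out, the value for FyPP3DN ran from 0.39 to 2.42, the highest of them without its untreated library 3, and none passed. That for nrp1 nrp2 was -1.36 without its untreated library 2. These comparisons share the WT libraries.

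**Figure D3:**
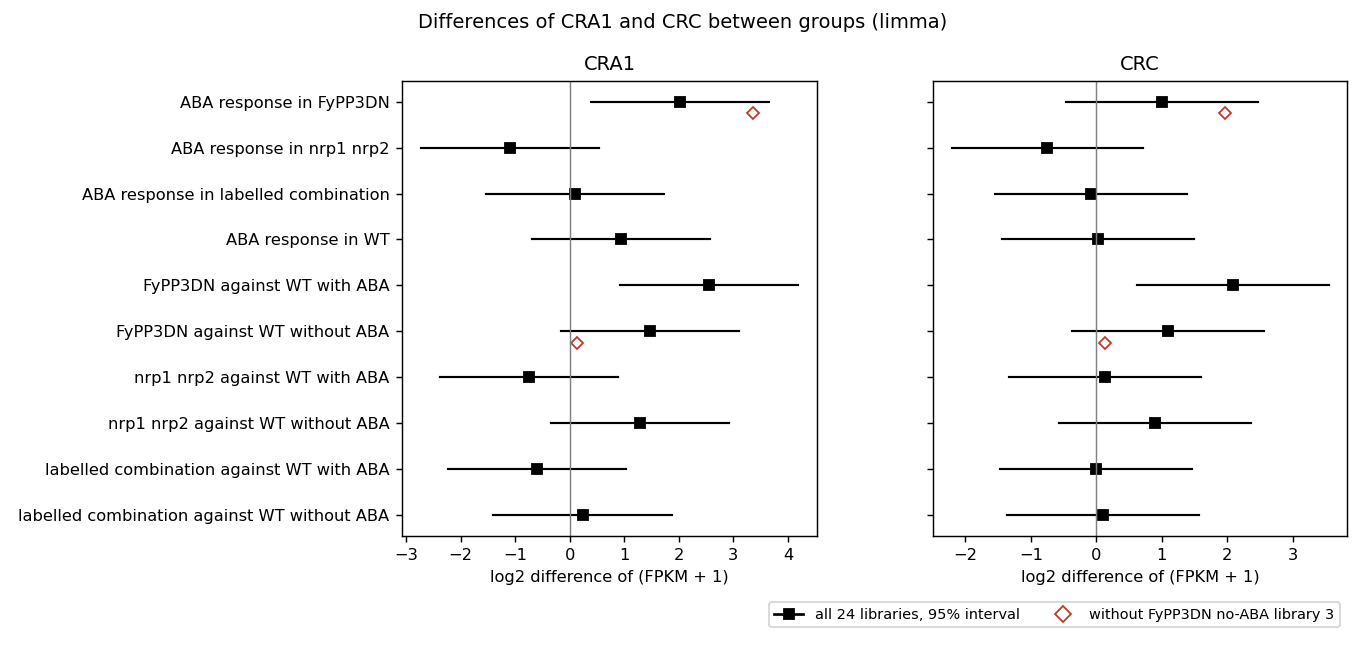
Black squares with lines give the log2 difference and its 95% interval from limma for CRA1 (left) and CRC (right), with the group named first minus the other (ABA response: treated minus untreated); red diamonds give the difference without library 3 of untreated FyPP3DN. The FyPP3DN against WT comparison with ABA had the largest differences shown, 2.55 for CRA1 and 2.08 for CRC, and without that library the ABA response of CRA1 in FyPP3DN was 3.35, beside 2.02 with it.

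The second question was whether the genotypes differ in storage gene RNA. With ABA, FyPP3DN against WT gave 0 of 2 genes called by limma, where 0.892% of all genes were called. The FyPP3DN libraries of CRA1 (4.29 to 30.02 FPKM) all lay above those of WT (0.52 to 2.07 FPKM), and the difference was 2.55 ± 0.78 (95% interval 0.92 to 4.18, limma adjusted p = 0.162). CRC differed by 2.08 ± 0.70 (limma adjusted p = 0.229), again without overlap. SESA2 also had no overlap, at 0.36, 0.14 and 0.15 FPKM in FyPP3DN and 0, 0 and 0.07 FPKM in WT, which is a few fragments per library. These 3 of 8 genes stand beside 6.54% of all tested genes that lay higher in FyPP3DN without overlap, and SESA2 was not among the tested genes. Without library 2 of ABA-treated FyPP3DN, CRC passed at 2.99 ± 0.66 (limma adjusted p = 0.0463), where 0.529% of all genes were called, and CRA1 was at 3.17 (adjusted p = 0.134). That library had the lowest CRC of its group, at 0.29 FPKM. The filter kept CRC partly through this same group, so the CRC pass is no support for a difference. Without library 3 of that group, the differences were 1.89 ± 0.83 for CRA1 and 1.15 ± 0.65 for CRC. Among the plastid-poor libraries alone they were 2.86 ± 1.01 and 2.14 ± 0.96, and neither passed. The untreated libraries that stood apart (FyPP3DN 3 and nrp1 nrp2 2) are in neither of the groups compared but enter the shared estimate of spread. Without them CRA1 was at 2.55 ± 0.43 and passed (limma adjusted p = 0.00564, with 0.978% of all genes called). They were picked after their high CRA1 had been seen. The difference was the same and only its SE fell, so this pass is no support for a difference.

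Without ABA, FyPP3DN against WT gave 0 of 2 genes called, where 0.579% of all genes were called. CRA1 differed by 1.47 ± 0.78 (limma adjusted p = 0.460) and CRC by 1.10 ± 0.70 (adjusted p = 0.562). Without library 3 of untreated FyPP3DN these were 0.13 and 0.14, so the difference rested on that library. SESA5 lay higher in all 3 untreated FyPP3DN libraries than in WT, as did 6.13% of all tested genes, among which SESA5 was not. Its lowest value there, 0.14 FPKM in library 2, came to 1.93 fragments and lay under the floor of 0.217 FPKM for that library.

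Untreated nrp1 nrp2 against untreated WT gave 0 of 2 genes called, where 0.0923% of all genes were called. CRA1, CRC and SESA2 lay higher in every untreated nrp1 nrp2 library than in any untreated WT library, as did 5.27% of all tested genes. SESA2 was not among the tested genes, and with no filter it differed by 0.67 ± 0.17 (limma adjusted p = 0.216). Its lowest value in untreated nrp1 nrp2, 0.07 FPKM in library 2, came to 0.96 fragments, against 0 in WT. The closest CRA1 values were 11.02 fragments in nrp1 nrp2 library 1 and 9.08 in WT library 1. CRC in untreated WT came to at most 2.19 fragments. The filter kept CRC partly through library 2 of untreated nrp1 nrp2, so its lack of overlap is no support for a difference. The differences were 1.29 ± 0.78 for CRA1 and 0.90 ± 0.70 for CRC (limma adjusted p = 1.00 for both), and CRA1 was at 0.62 without library 2 of untreated nrp1 nrp2. With ABA, nrp1 nrp2 against WT gave 0 of 2 called against 0.0667% of all genes, with -0.74 ± 0.78 for CRA1 and 0.13 ± 0.70 for CRC.

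The labelled combination gave 0 of 2 genes called against WT, where 0.0872% of all genes were called with ABA and 0.0821% without ABA. The CRA1 differences were -0.60 ± 0.78 with ABA and 0.24 ± 0.78 without ABA. Against nrp1 nrp2, 0 of 2 genes were called, where 0.0103% of all genes were called with ABA and 0.0462% without ABA. CRA1 differed there by 0.14 ± 0.78 with ABA and by -1.05 ± 0.78 without ABA, the second of which was -0.39 without library 2 of untreated nrp1 nrp2. With libraries paired by number (a replicate block), 41 of all genes were called without ABA in place of 9, and neither CRA1 nor CRC was among them. None of the 3 CRA1 values above 10 FPKM came from these libraries.

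By the summed FPKM of the 8 genes, the order was FyPP3DN with ABA (mean 23.1 ± 22.6, SD, n = 3), FyPP3DN without ABA (9.66 ± 14.8), nrp1 nrp2 without ABA (5.11 ± 3.80), WT with ABA (1.53 ± 0.816), nrp1 nrp2 with ABA (1.18 ± 1.22), the labelled combination with ABA (0.890 ± 0.302) and without ABA (0.777 ± 0.527), and WT without ABA (0.460 ± 0.285). Every neighbouring pair in this order had overlapping ranges. The order depended on single libraries: without library 3, untreated FyPP3DN had a mean of 1.14 and rank 5, and without its library 3, FyPP3DN with ABA had a mean of 10.45. Without library 2, untreated nrp1 nrp2 had a mean of 2.96. The pair with signal varied widely within groups. Within groups, log2(FPKM + 1) of CRA1 had an SD of 1.06 and that of CRC 0.947, against a median of 0.186 over 19500 genes, which put them at ranks 108 and 132 from the top. The filter kept CRC partly through untreated libraries that stood apart in their groups. Its wide spread thus followed in part from the filter, and its rank is a description.

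CRA1 and CRC varied together. Their correlation was 0.934 over the 24 libraries on the log2(FPKM + 1) scale, and 0.933 after subtracting group means. This is a description, since libraries of a group share their treatment. The ratio of CRA1 to CRC in FPKM was 2.52 in library 3 of untreated FyPP3DN, 1.83 in library 2 of untreated nrp1 nrp2, and 1.95 and 3.25 in libraries 3 and 1 of FyPP3DN with ABA. It was 14.8 in library 2 of FyPP3DN with ABA, and 20.7 and 11.8 in libraries 1 and 2 of WT with ABA, where CRC was at or below 0.1 FPKM. The difference in ratio between libraries was not tested.

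**Figure D4:**
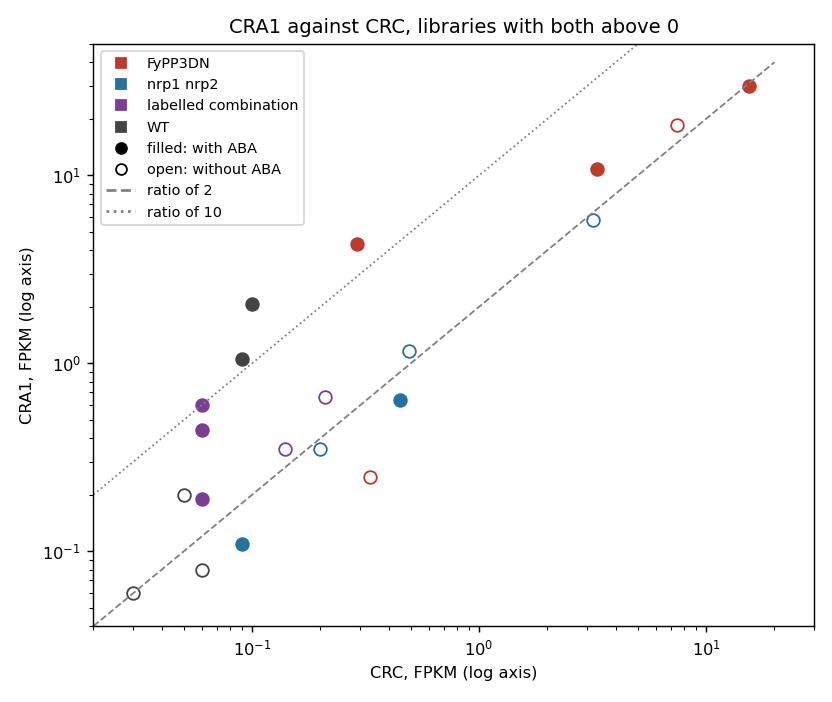
Each point is 1 library in which both genes were above 0, with CRC on the horizontal and CRA1 on the vertical axis, both in FPKM on log axes; grey lines mark ratios of 2 and 10. Libraries with the most CRA1 lie near the line of 2, while 2 WT libraries with ABA and library 2 of FyPP3DN with ABA lie above the line of 10.

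The 2 untreated libraries with high CRA1 also stood apart for other genes of seed maturation. A list of 16 such genes held oleosins (OLEO1 to OLEO5, which coat oil bodies), CLO1, HSD1, the Em proteins EM1 and EM6, PER1, M17, ECP63 and other late embryogenesis proteins. In library 3 of untreated FyPP3DN, 13 of the 16 (81.2%) were at their highest of the group, where 43.1% of all genes were. There 11 of them (68.8%) exceeded the next library more than 2-fold, where 1.48% of all genes did. In library 2 of untreated nrp1 nrp2, 14 of 16 (87.5%) were the highest of their group, against 33.8% of all genes. There 10 (62.5%) exceeded the next library more than 2-fold, against 0.621% of all genes. Both libraries were plastid-poor.

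The summed FPKM of the 16 genes ran from 47.3 to 186.2 in FyPP3DN with ABA and from 12.2 to 44.2 in FyPP3DN without ABA. It ran from 13.5 to 21.0 in nrp1 nrp2 with ABA and from 5.10 to 28.0 without, from 16.6 to 18.6 and from 3.45 to 5.32 in the labelled combination with and without ABA, and from 26.0 to 45.4 and from 4.24 to 7.30 in WT with and without ABA. CLO1 and HSD1 never exceeded 0.26 and 0.07 FPKM. The ABA-responsive gene KIN1 was at 42.3 FPKM or more in every ABA-treated FyPP3DN library and at 1.61, 2.47 and 2.82 FPKM in untreated FyPP3DN, so library 3 was below all treated ones. RAB18, a dehydrin gene of the ABA response, was at 2.24, 0.22 and 13.79 FPKM in untreated FyPP3DN. ICL, the isocitrate lyase of the glyoxylate cycle that works while seed oil is used, was at 10.2, 9.65 and 56.1 FPKM in the same 3 libraries, and at 1.04, 14.5 and 1.54 FPKM in untreated nrp1 nrp2. Of the 12 genes of reserve breakdown to which ICL belongs, 12 were highest in library 3 of untreated FyPP3DN, where 43.1% of all genes were. In library 2 of untreated nrp1 nrp2 only 3 of the 12 (25%) were the highest of their group, against 33.8% of all genes, and 8 were highest in library 3 there. FYPP3 was also highest in library 3 of untreated FyPP3DN, at 85.2 FPKM. Whether any of these genes has a part in the CRA1 values was not tested.

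**Figure D5:**
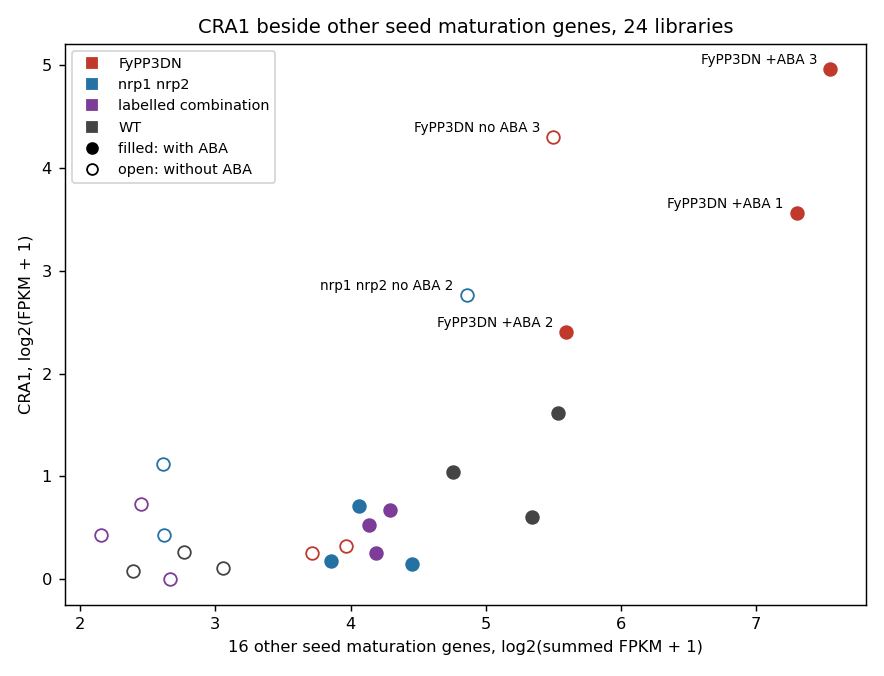
Each point is 1 of the 24 libraries, with log2(summed FPKM + 1) of 16 other seed maturation genes on the horizontal axis and log2(FPKM + 1) of CRA1 on the vertical axis; filled points are ABA-treated and the 5 libraries with CRA1 above 4 FPKM are named. Those 5 are FyPP3DN with ABA (3 libraries), library 3 of untreated FyPP3DN and library 2 of untreated nrp1 nrp2.

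The genes most like the pair were sought by Pearson correlation over the 24 libraries with the mean log2(FPKM + 1) of CRA1 and CRC. The 10 nearest had r from 0.875 to 0.958. They were AT1G68250 (0.958), AT2G28490 (0.948), AT1G54870 (0.936), PAP85 (0.925), AT5G44310 (0.914), ATOEP16-2 (0.911), AT1G03106 (0.907), LEA (AT2G21490, 0.897), AT1G04560 (0.880) and ECP63 (0.875). AT2G28490 and PAP85 belong to the vicilin-like storage globulins. Within groups their r was 0.931 and 0.895. AT1G68250 was at 23.8 FPKM in library 3 of FyPP3DN with ABA and at 27.7 FPKM in library 3 of untreated FyPP3DN. By Spearman rank correlation, 3 of these 10 were among the nearest 10.

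A list of 5 other storage globulin genes was followed beside the members. Of these, 3 passed the filter. AT2G28490 and PAP85 passed it only through FyPP3DN with ABA and the untreated libraries that stood apart, so no share of the list is read from them. AT4G36700, a cupin-family gene, was at 4.78, 2.46 and 3.71 FPKM in FyPP3DN with ABA and at 0.72, 1.37 and 0.57 FPKM without ABA, and it rose by 1.29 ± 0.23 (limma adjusted p = 0.00121). AT2G28490 was at 3.91, 0.69 and 10.17 FPKM with ABA and at 0.03, 0.03 and 1.79 FPKM without, and rose by 1.66 ± 0.46 (limma adjusted p = 0.0372), a call that was lost with no filter on low values (limma adjusted p = 0.0513). Its library 3 was the highest of both groups, as for CRA1 and CRC. AT4G36700 was also higher in FyPP3DN than in WT with ABA, by 1.60 ± 0.23 (limma adjusted p = 0.00102; 0.123% of all genes were called higher), and in the response averaged over genotypes, by 0.78 ± 0.11 (limma adjusted p = 2.42e-05). PAP85, at 3.04, 0.32 and 5.92 FPKM in FyPP3DN with ABA and 0.03, 0.04 and 2.49 FPKM without, was not called (difference 1.10 ± 0.43, limma adjusted p = 0.160). CRD, a cruciferin gene, was listed at 0 in all 24 libraries. With no filter, the 4 genes with a value above 0 were tested, and AT4G36700 and AT2G18540 were called higher with ABA in FyPP3DN, where 2.23% of all genes were called higher. AT2G18540 was at 4.65, 0.73 and 1.25 FPKM with ABA and at 0.04, 0.07 and 0.43 FPKM without, a difference of 1.26 ± 0.27 (limma adjusted p = 0.00776). Without library 3 of untreated FyPP3DN and library 2 of untreated nrp1 nrp2, AT4G36700 alone passed the filter, and it was called in the same 3 comparisons as with all libraries.

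Of the 16 other seed maturation genes, 13 were tested. Averaged over the genotypes, 10 of 13 rose with ABA and none fell, with a median difference of 0.96, against 0.002 over all genes, and 12.8% of all genes were called higher. By genotype, 9 of 13 rose in FyPP3DN, 2 in nrp1 nrp2, 3 in the labelled combination and 7 in WT, where 2.92, 3.14, 6.8 and 4.47% of all genes were called higher. The tests of a response different from WT called 0 of 13 in each of FyPP3DN, nrp1 nrp2 and the labelled combination. Of all genes, 0.144, 0 and 0% were called in these tests. The filter can keep a gene through the libraries in which it is high, so the counts were also taken over all 16 genes with no filter. Then 10 of 16 rose in the averaged response and 8 of 16 in FyPP3DN, where 9.96 and 2.23% of all genes were called higher. Without library 3 of untreated FyPP3DN and library 2 of untreated nrp1 nrp2, 12 genes were tested. Of these, 10 rose in the averaged response and 10 in FyPP3DN, where 22.3 and 4.12% of all genes were called in either direction. The libraries were left out after seed genes were seen to be high in them, so these counts add no support for a rise. Between FyPP3DN and WT with ABA, 0 of 13 were called with all libraries, where 0.892% of all genes were called. Without those libraries it was 5 of 12, all higher in FyPP3DN, where 0.978% of all genes were called. Those libraries are in neither group compared and were picked after seeing that seed genes were high in them. Leaving them out changed the estimate of spread and the filter, not the values compared, so the 5 calls are no support for a difference. EM6, an Em-type late embryogenesis gene, rose by 1.80 ± 0.16 (limma adjusted p = 3.30e-08), LEA4-2 by 1.59 ± 0.19 (adjusted p = 1.63e-06) and AT3G17520 by 2.08 ± 0.25 (adjusted p = 1.75e-06). All 13 ABA-responsive control genes rose, with a median difference of 2.63. LTP4, a lipid transfer protein gene, rose by 6.02 ± 0.14 (limma adjusted p = 2.67e-17). The 2 storage protein genes tested were not called in this response.

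Regulators of storage genes were taken next. Of 14 activators, 7 were tested, and in the averaged ABA response ABI5 rose by 0.44 ± 0.06 (limma adjusted p = 8.52e-06) and BZIP25 fell by 0.21 (limma adjusted p = 0.00374). ABI5 was at 2.77, 3.26 and 2.97 FPKM in FyPP3DN with ABA and at 2.46, 2.08 and 2.62 FPKM without. ABI3, FUS3, LEC1 and LEC2 reached at most 0.77, 0.68, 0.09 and 0.16 FPKM in any library. None of the 16 repressors, VAL1, PKL and the Polycomb gene CLF among them, was called in the averaged response by limma, and 3 of 16 had an unadjusted p under 0.05. In this response 24.3% of all genes were called in either direction, which stands beside the calls of both lists.

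Genes that sort and cleave the proteins, and genes that break reserves down, were the last lists. Of 11 processing and sorting genes, 10 were tested and 3 rose in the averaged ABA response, where 12.8% of all genes were called higher. betaVPE, the vacuolar processing enzyme of seeds, was at 3.49, 3.77 and 5.08 FPKM in FyPP3DN with ABA and at 0.85, 1.65 and 2.79 FPKM without, and at 5.06, 3.05 and 3.75 FPKM in WT with ABA and 0.95, 1.15 and 0.94 FPKM without. Its averaged response was 1.03 ± 0.11 (limma adjusted p = 2.11e-07). alphaVPE rose by 0.76 ± 0.10 (limma adjusted p = 6.94e-06) and MAG1, a subunit of the retromer that recycles sorting receptors, by 0.14 ± 0.05 (adjusted p = 0.0273). Without the pair of untreated libraries named above, 2 of 10 rose, where 22.3% of all genes were called in either direction. That share counts falls too, so it is not the same measure as the 12.8%. Of 12 genes of reserve breakdown, 5 rose, beside the same 12.8% of all genes. Without that pair 5 also rose, beside the same 22.3% in either direction. CEP1, a cysteine endopeptidase, rose by 0.60 ± 0.09 (limma adjusted p = 3.34e-05), AT3G48350, of the same family, by 0.55 ± 0.08 (adjusted p = 4.34e-05) and AALP by 0.36 ± 0.07 (adjusted p = 0.000272).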

How the data were processed

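The authors deposited 1 table of FPKM per library. Reads were aligned to TAIR10, per the submitters' processing notes, and the labels name either poly(A) selection or removal of rRNA without saying which was used. Gene names, coordinates and sequences came from TAIR10.1 (RefSeq), whose tables matched 32548 of 32833 identifiers. No count test was run, because whole fragments were checked only in genes shorter than 400 bases, and log2(FPKM + 1) was fitted with limma 3.58.1 in R 4.3.3, using 8 group means, an intensity trend and Benjamini-Hochberg adjustment over 19500 genes with at least 1 FPKM in 3 or more libraries, and a difference understates the change of low genes. The procedure was tested on simulated data. Fragments per gene were FPKM times exon length times depth, where depth came from the FPKM steps of genes shorter than 400 bases (99.7 to 100% of values within 0.1 of a whole fragment). All 8 members were named in each comparison, and of each list up to 3 genes with the smallest adjusted p in the averaged response. The upstream window of 1 member is not reported here. Members and lists were chosen with earlier results of these data known. Same-numbered libraries deviated together (correlations of 0.153 to 0.858) in the 12 comparisons without untreated FyPP3DN, but not in those with it (lowest -0.694), so a replicate block was an alternative. In those 12 the plastid-rich library had the same number in each group, so pairing by number and library type were not told apart. Alternatives covered pseudocount, filter, scaling, library type and single libraries.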

Additional observations from a re-analysis of the deposited data

How the results depend on the processing

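The replicate block, which pairs libraries by number, changed no call of CRA1 or CRC (adjusted p of 0.137 for CRA1 with ABA in FyPP3DN). It moved the count of all genes called by over 1.5 times in 2 comparisons, FyPP3DN against WT without ABA (191, main 113) and the labelled combination against nrp1 nrp2 without ABA (41, main 9). With single libraries left out, members called ran from 0 to 1 for ABA in FyPP3DN, for the averaged ABA response and for FyPP3DN against WT with ABA. Without both library 3 of untreated FyPP3DN and library 2 of untreated nrp1 nrp2, an alternative chosen after seeing the data, CRA1 was the 1 member called in each of these, at 3.35 (adjusted p = 0.000319; 4.12% of all genes called), 0.99 (adjusted p = 0.0032; 22.3%) and 2.55 (adjusted p = 0.00564; 0.978%), and CRC did not reach the filter. Those libraries were picked after their high CRA1 had been seen, so these passes are no support for a difference. With no filter, 1 of 8 members was called in the averaged response, where 19.4% of all genes were. This was SESA4 at -0.16 (limma adjusted p = 0.0302), which rests on 33 fragments.

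Of the alternative values, 322 of 328 for CRA1 and 276 of 294 for CRC kept their direction and side of the threshold. None of the reversed values passed the threshold, and the cause was not tested. Requiring 1 FPKM in at least 6 libraries left CRC untested. CRC with ABA in WT was -0.021 with quantile normalization and -0.0012 in plastid-poor libraries, and ran from -0.0035 to 0.065 with single libraries left out. Its averaged response was -0.062 with a pseudocount of 0.1 and -0.22 in plastid-poor libraries, and ran from -0.18 to 0.29. For the labelled combination against WT with ABA, CRC was 0.036 with a pseudocount of 0.1, 0.029 with quantile normalization and 0.022 in plastid-poor libraries, and ran from -0.047 to 0.022. Against nrp1 nrp2 with ABA it was 0.022 in plastid-poor libraries and ran from -0.25 to 0.022. For nrp1 nrp2 against WT with ABA it ran from -0.025 to 0.24. CRA1 with ABA in the labelled combination ran from -0.097 to 0.27. Spearman correlation shared 3 of the 10 genes nearest to the pair, and plastid-poor libraries 9.

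Counts of all genes called differed by over 1.5 times in 78 of 339 alternative counts. They ran from 260 to 1953 (main 1161) for ABA in FyPP3DN, 548 to 1747 (1173) in nrp1 nrp2, 1239 to 3351 (2227) in the labelled combination and 943 to 2167 (1502) in WT. They ran from 50 to 363 (174) and 9 to 459 (113) for FyPP3DN against WT with and without ABA, 5 to 20 (13) and 5 to 41 (18) for nrp1 nrp2, and 5 to 25 (17) and 5 to 21 (16) for the labelled combination. Against nrp1 nrp2 that combination gave 0 to 2 (2) with and 0 to 173 (9) without ABA. For differences of the response from WT they ran from 6 to 110 (28) in FyPP3DN and from 0 to 2 (0) in the labelled combination. Depth limits the albumins and CRB, whose values rest on a few fragments.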
